A study of Trichoderma reesei with 4 samples.

Results

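A set of 84 genes of the filamentous ascomycete Trichoderma reesei had low transcript levels at 3 h of sporulation and levels near those of mycelium again at 6 h and 9 h. They were 0.92% of the 9126 features of the array. A gene belonged to the set if its mean log2 expression at 3 h was at least 1 log2 unit, or 2-fold, below that at 0 h, and if its means at 6 h and at 9 h both lay above -0.6 log2 units relative to 0 h. The means that chose the genes are therefore described here without a test. Only the difference between 9 h and 6 h was tested. The rule does not set this difference, but its floor of -0.6 limits how far a gene could fall. It also leaves out genes still low at 6 h that rose by 9 h. Only 6 of the 84 genes had a symbol in the gene table, and all 6 encode ribosomal proteins. Over all features 235 had a symbol, of which 42 are ribosomal protein genes, and 36 of these lie outside the set. The other 78 genes of the set are known here by their identifiers alone, and nothing is said of their function.

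The study used strain QM9414, an early cellulase-producing mutant of T. reesei, and followed how its mycelium turned to making conidia, the asexual spores of the fungus. The fungus grew on a cellophane layer over plates of malt extract agar. Total RNA of a mycelium control (0 h) and of sporulating mycelia at 3, 6 and 9 h was labelled with Cy3 and hybridised to 1-colour NimbleGen arrays. Each of the 4 groups had 2 biological replicas, whose mean log2 expression and SD the authors deposited. All levels below are these means ± SD (n = 2). No culture was sampled at 3, 6 or 9 h without sporulation, so time in culture and sporulation cannot be told apart. The whole RNA of a colony was measured, so fewer cells of a type and less RNA per cell cannot be told apart either.

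Over all features the median level was between 11.53 and 11.56 at the 4 times. The gene of the marker enzyme of conidiation, the D-mannitol dehydrogenase gene lxr1, had a level of 11.96 ± 0.2 at 0 h and of 13.33 ± 0.12 at 3 h, and was at 13.94 ± 0.14 and 13.89 ± 0.12 at the later times, which is the direction the labels imply. The hydrophobin genes hfb1, hfb2 and hfb3, which encode coat proteins of hyphae and spores, differed from 0 h by -0.50, 3.10 and 4.52 at 3 h and by -0.18, 3.18 and 4.38 at 9 h. At 3 h, 438 features, or 4.8%, were at least 2-fold lower than at 0 h with an adjusted p under 0.05 by limma's moderated test, and 440 were lower by 1 log2 unit or more in their means. The 84 genes are the part of these 440 that returned.

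Ribosomes are built from ribosomal RNAs and many ribosomal proteins, each needed in about the same amount. Their synthesis takes up a large part of a growing cell's transcription. In yeast their genes are switched together, with fast growth raising and nutrient limitation or stress lowering their transcripts. This is background from other fungi and is not a result of these arrays.

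Of the 6 ribosomal protein genes in the set, 4 encode proteins of the large subunit, rpl5, rpl15, rpl28 and rpl30, and 2 encode proteins of the small subunit, of which rps14 is described here. The lowest of these 5 relative to mycelium was rpl15, with levels of 12.87 ± 0.054, 11.60 ± 0.21, 12.32 ± 0.02 and 12.46 ± 0.021 at 0, 3, 6 and 9 h. It was thus 2.41-fold lower at 3 h, and both 3 h replicas lay below every replica of the other times. The gene rpl5, whose yeast counterpart binds the 5S ribosomal RNA, had levels of 14.47 ± 0.16, 13.21 ± 0.056, 13.88 ± 0.028 and 14.14 ± 0.27 at the 4 times in order. It was 2.39-fold lower at 3 h, and at 9 h 74.2% of the difference had been regained. Both genes stood below mycelium at the later times, rpl15 by a log2 difference of -0.41 and rpl5 by -0.32 at 9 h.

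The remaining 3 lay closer to the threshold of the fall. Levels of rpl28 were 15.01 ± 0.066, 13.99 ± 0.0067, 14.54 ± 0.10 and 14.53 ± 0.052 at 0, 3, 6 and 9 h, with a small spread at every time. About as much had been regained at 6 h, 54.1%, as at 9 h, 52.6%. The other two, rpl30 and rps14, had a higher mean at 6 h than at 9 h. Levels of rpl30 were 13.84 ± 0.33, 12.78 ± 0.33, 13.54 ± 0.091 and 13.25 ± 0.057 at 0, 3, 6 and 9 h. Those of rps14 were 13.14 ± 0.10, 12.11 ± 0.31, 12.83 ± 0.12 and 12.58 ± 0.035. The 3 h replicas of rpl30 were 12.55 and 13.01 against 13.60 and 14.07 at 0 h, so the groups did not overlap although their spread was wide. Over the 5 genes the share of the 3 h difference that had been regained ranged from 52.9% to 72.0% at 6 h and from 44.6% to 74.2% at 9 h.

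**Figure D1:**
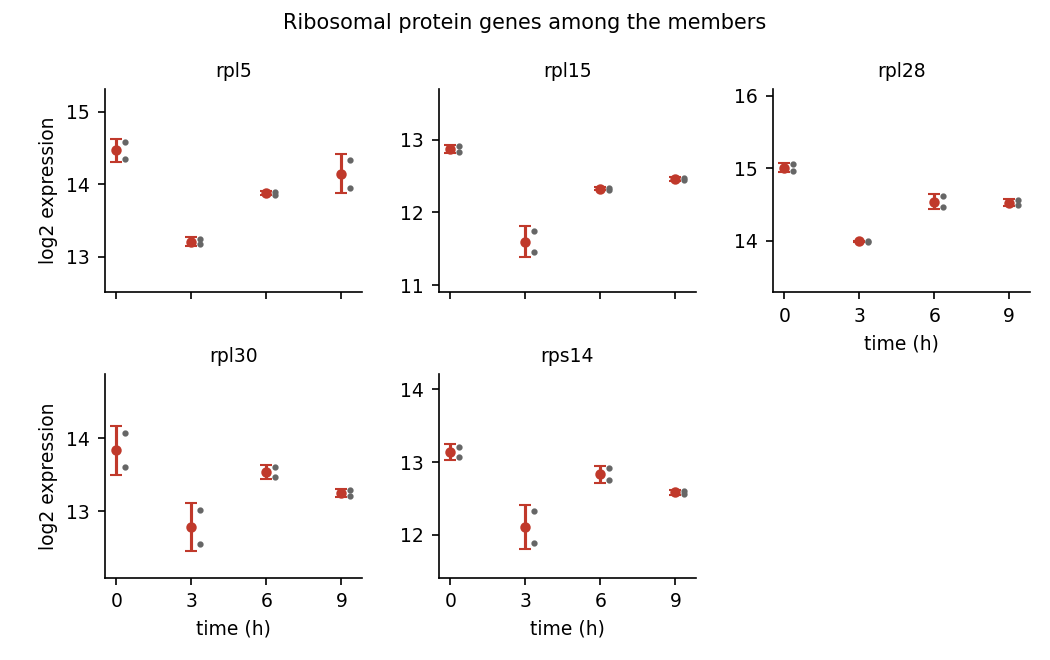
Log2 expression of 5 ribosomal protein genes of the set against time in hours. Red points with bars are the deposited mean ± SD of 2 replicas, and the 2 grey points beside each are the replica values that follow from them. The 3 h points are the lowest in every panel, as the rule requires, and the later points lie between the 3 h and the 0 h level.

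The 6 genes are a part of 42 ribosomal protein genes with a symbol, a list known from earlier results of these data to be low at 3 h. All 42 had a 3 h mean below the 0 h mean, where 55.4% of all features did, and the median difference was -0.76, against -0.05 over all features. The lowest mean of the 4 times fell at 3 h in 41 of the 42, where it did so in 25.3% of all features, and the exception was rps30, with 14.62 ± 0.18 at 3 h and 14.58 ± 0.016 at 9 h. Every one of the 42 had a higher mean at 6 h than at 3 h, where 54.3% of all features had, and 1, rla0, was so by at least 2-fold with an adjusted p under 0.05. Its signal was low for this list, 8.34 ± 0.38 at 0 h and 7.47 ± 0.36 at 3 h. The median difference from 0 h was -0.31 at 6 h and -0.33 at 9 h, so that the list as a whole stood a little below mycelium after 3 h. Large and small subunit genes had similar medians, -0.74 over 20 rpl genes and -0.78 over 20 rps genes at 3 h, and no test of that difference was made.

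The thresholds of the rule separated the 6 from the rest of the list. In 10 of the 42 genes the 3 h mean was lower by 1 log2 unit or more, and 4 of these missed the recovery, all of them rps genes. They were rps12, with differences from 0 h of -1.26, -0.69 and -0.80 at 3, 6 and 9 h, rps9, with -1.19, -0.53 and -0.68, rps29, with -1.18, -0.55 and -0.81, and rps28, with -1.11, -0.54 and -0.61. Each of these 4 missed at 9 h, and rps12 at 6 h too. Of the 32 with a smaller fall, 31 were above -0.6 at both later times. The nearest to the threshold were rpl32 at -0.97, rpl36 and rps7 at -0.93. The list formed a continuous range from -1.27 for rpl15 to -0.18 for rps30. With each time centred on its median, 3 of the 6 genes were left in the set, and after quantile normalization 5 ribosomal protein genes were in it, 4 of them among the original 6.

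**Figure D2:**
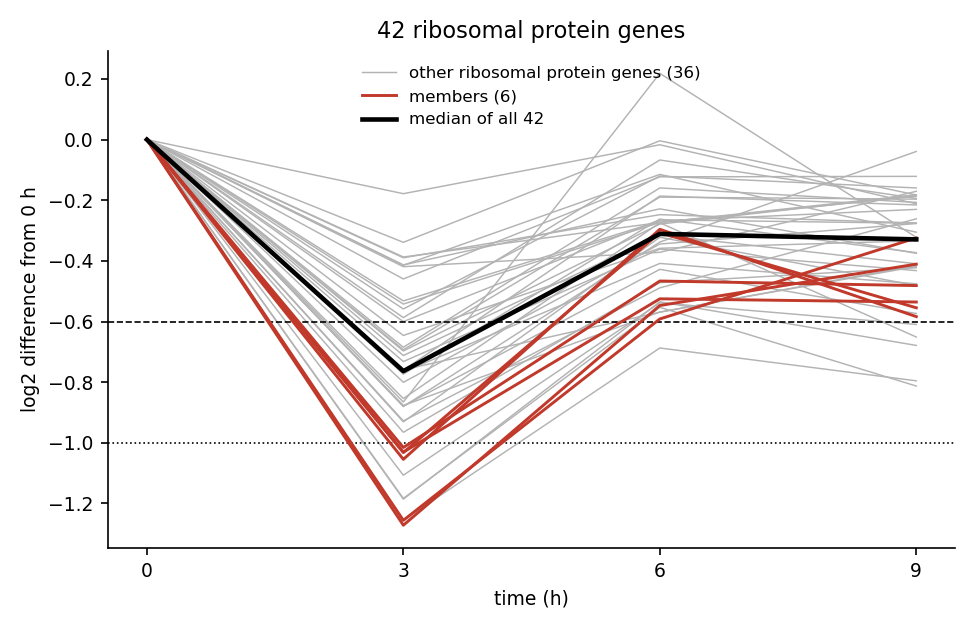
Log2 difference from 0 h against time in hours for 42 ribosomal protein genes, with the 6 members in red, the other 36 in grey and the median of all 42 in black. The dotted line marks -1, the limit of the fall at 3 h, and the dashed line -0.6, the limit of the recovery at 6 h and 9 h. The red lines lie within the range of the grey ones at 6 h and 9 h. At 3 h rpl15 and rpl5 lie just below the lowest grey line, rps12, with no gap between the groups.

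Other named genes of protein synthesis and of related processes were examined from lists chosen by symbol. None of their genes belonged to the set. Both genes of the translation factor list, tef1a and tef2, were near their mycelium level at 3 h, with differences of -0.20 and 0.02. The proteasome and ubiquitin list had 0 of 7 genes called at 3 h, but its median differences were -0.58, -0.40 and -0.65 at 3, 6 and 9 h. In that list 1 gene was called lower at 9 h. The secretory pathway and small GTPase list had 0 of 12 called at 3 h, with a median of -0.02. The folding list had 0 of 2, with a median of 0.59, and the mitochondrial list 0 of 2, with -0.25. Over all features 4.8% were called lower at 3 h, so 0 called in lists this short says little. In the list of amino acid and nucleotide synthesis 1 of 5 was lower, trp, which stayed low, with differences of -1.15, -0.82 and -0.78 at 3, 6 and 9 h. That list also held cpc2, whose counterpart in other fungi is a WD-repeat protein bound to the small ribosomal subunit. It showed the same course as the set without reaching its threshold, with levels of 14.73 ± 0.12, 13.76 ± 0.10, 14.22 ± 0.059 and 14.52 ± 0.20. A further gene, chosen after its values were seen, was erf1, the release factor that ends translation, with differences of -0.72, -0.47 and -0.52 in the same order. Of 18 chitinase genes 3 were higher and 2 lower at 3 h, and of 14 genes of the cellulase list 12 were higher and 0 lower, where 6.77% of all features were higher. No symbol matched the lists of ribosome assembly genes and of histone genes.

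The genes without a symbol span the full depth of the dip. Over all 84 the 3 h difference ranged from -2.77 to -1.001 with a median of -1.16, and 49 of them were lower by less than 1.2 log2 units. Only 12 were lower by 1.5 or more. The deepest was TRIRE2_60337, with levels of 11.54 ± 0.028, 8.76 ± 0.37, 11.08 ± 0.071 and 11.50 ± 0.063 at 0, 3, 6 and 9 h, a 6.84-fold lower level at 3 h of which 98.6% had been regained at 9 h. It stood well apart from the next in order. That was TRIRE2_104251, 3.4-fold lower at 3 h, with levels of 11.18 ± 0.24, 9.42 ± 0.02, 10.83 ± 0.044 and 11.27 ± 0.047. Close behind were TRIRE2_70996, with 12.68 ± 0.28, 10.92 ± 0.27, 12.93 ± 0.21 and 12.78 ± 0.039, and TRIRE2_74570, with 12.58 ± 0.094, 10.84 ± 0.014, 12.39 ± 0.027 and 12.30 ± 0.013. In all 4 the replicas at 3 h lay below every other replica, and TRIRE2_70996 was already at its mycelium level at 6 h.

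**Figure D3:**
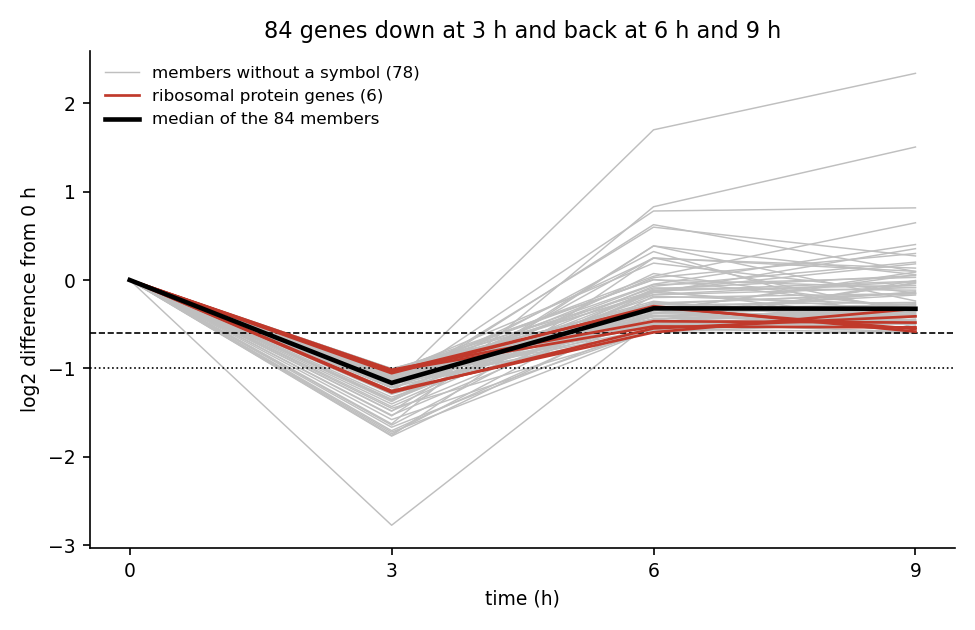
Log2 difference from 0 h against time in hours for the 84 genes, with the 78 genes without a symbol in grey, the 6 ribosomal protein genes in red and the median in black. The dotted line marks -1 and the dashed line -0.6, the limits of the rule. The median is -1.16, -0.32 and -0.33 at 3, 6 and 9 h, and 1 gene lies far above 0 at 9 h.

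Signals of different genes depend on their probes and are not compared as amounts. The brightest genes without a symbol at 0 h were TRIRE2_107784, TRIRE2_78836, TRIRE2_75845 and TRIRE2_77906. Levels of TRIRE2_107784 were 15.37 ± 0.037, 14.35 ± 0.079, 14.93 ± 0.076 and 14.97 ± 0.028 at 0, 3, 6 and 9 h. Those of TRIRE2_78836 were 15.01 ± 0.11, 13.75 ± 0.21, 14.42 ± 0.20 and 14.60 ± 0.017, and those of TRIRE2_77906 were 14.09 ± 0.11, 12.99 ± 0.18, 13.67 ± 0.14 and 13.75 ± 0.18. All of these stayed below their mycelium level at the later times. The gene TRIRE2_75845, with 14.28 ± 0.12, 13.28 ± 0.11, 14.01 ± 0.071 and 13.85 ± 0.0089, was the member with the smallest dip, -1.0009.

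The return was partial for most genes. At 6 h 67 of the 84 were below their 0 h mean, where 53% of all features were, and at 9 h 66 were, against 53.9%, and 59 were below at both times, with median differences of -0.32 and -0.33. The median share regained was 74.4% at 6 h and 75.4% at 9 h, and the rule itself requires a return by 6 h. Within 0.3 log2 units of the 0 h mean were 32 genes at 6 h and 32 at 9 h, or 38.1% each time. Over all features the lower and upper quartiles of the difference were -0.31 and 0.28 at 6 h and -0.37 and 0.32 at 9 h. Being this near to 0 h was thus not particular to the set. Between 3 h and 6 h, 36 of the 84 genes were higher by at least 2-fold with an adjusted p under 0.05, where 2.38% of all features were. Since the rule used these means, the counts and shares of the return are a description only.

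A few genes went past the mycelium level. At 9 h 18 of 84, or 21.4%, were above their 0 h mean, 4 of them by 0.5 log2 units or more and 2 by 1 or more. Over all features 53.9% were below theirs at 9 h. The upper quartile of the 9 h difference was -0.03 in the set and 0.32 over all features, so such rises were not particular to the set. The gene TRIRE2_82105 had levels of 10.19 ± 0.036, 8.99 ± 0.34, 11.89 ± 0.042 and 12.52 ± 0.046 at 0, 3, 6 and 9 h. It was 2.29-fold lower than mycelium at 3 h and 5.06-fold higher at 9 h, and the replicas of all 4 times were separate from each other. Levels of TRIRE2_68574 were 8.69 ± 0.00011, 7.06 ± 0.51, 9.52 ± 0.18 and 10.19 ± 0.16, with a wide spread at 3 h. Those of TRIRE2_64906 were 8.28 ± 0.11, 7.08 ± 0.21, 9.06 ± 0.17 and 9.10 ± 0.20, and those of TRIRE2_54242 were 13.51 ± 0.16, 12.45 ± 0.0039, 13.55 ± 0.0083 and 14.16 ± 0.087. All 4 had a higher mean at each time after 3 h, though TRIRE2_64906 differed by only 0.036 between 6 h and 9 h. The mean of TRIRE2_54242 was at its mycelium level at 6 h and above it at 9 h.

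The comparison of 9 h with 6 h asks whether the genes went on changing after their return. By limma's moderated test none of the 84 differed by at least 2-fold with an adjusted p under 0.05, where 176 of 9126 features, or 1.93%, did. By adjusted p alone 6 genes differed, or 7.14%, where 13.3% of all features did, and 17 had an unadjusted p under 0.05, where 32.5% of all features had. The fit pooled the SDs of all 4 times, so a wide spread at 3 h also enlarged the standard error of this comparison. The median SD at 3 h was 0.186 in the set and 0.0992 over all features. The part of this spread in the lower shares was not tested. Higher at 9 h were 5 of the 84, or 5.95%, close to the 5.33% of all features that were higher. They were TRIRE2_82105 by 0.64 (adjusted p = 0.033) and TRIRE2_54242 by 0.60 (adjusted p = 0.0137), and outside the naming rule, chosen after their values were seen, TRIRE2_109443 by 0.51 (adjusted p = 0.0242), TRIRE2_111787 by 0.50 (adjusted p = 0.0214) and TRIRE2_52976 by 0.47 (adjusted p = 0.0499). The last passed in 4 of the 6 fits run, with an adjusted p of up to 0.0607. Lower at 9 h was 1 of the 84, or 1.19%, where 7.98% of all features were lower. The rule's floor of -0.6 at 9 h limits how far a gene of the set could fall after 6 h. Its floor at 6 h leaves out genes still low then that rose by 9 h, as 21 of the features down at 3 h did. The shares of higher and of lower genes and the absence of 2-fold calls are therefore partly set by the rule. The 1 lower gene was TRIRE2_3043, at -0.86 (adjusted p = 0.0376). Its signal was faint, 5.81 ± 0.31, 4.56 ± 0.32, 6.13 ± 0.32 and 5.27 ± 0.0077 at 0, 3, 6 and 9 h, and its 3 h and 9 h levels lay below 5.53, the highest level of 3 features for genes of the mating-type locus MAT1-1, which strains of the QM6a lineage lack, so the size of its difference is not exact. The larger difference of TRIRE2_68574, 0.68, did not pass (adjusted p = 0.0801), with its SD of 0.51 at 3 h in the pooled spread.

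Of the 6 ribosomal protein genes none passed this test. Their differences between 9 h and 6 h ran from -0.29 for rpl30 (adjusted p = 0.337) to 0.27 for rpl5 (adjusted p = 0.236). Over the 84 genes the difference ranged from -0.86 to 0.68 with a median of 0.04, against -0.01 over all features, and 47 of the 84 had the higher mean at 9 h, where 48.9% of all features had. The standard error of the difference was 0.14 for rpl5 and 0.19 for rpl30, so changes of well under 2-fold could go unseen in genes of this spread. For rpl30 the pooled spread came largely from the SDs at 0 h and 3 h, both 0.33. At 6 h and 9 h its SDs were 0.091 and 0.057.

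Of the 356 features that were lower by 1 log2 unit or more but fell outside the rule, 292 missed the recovery at both times, 21 at 6 h alone and 43 at 9 h alone. Their median difference from 0 h was -1.40, -1.22 and -1.29 at 3, 6 and 9 h, and since the rule divided the features by their 6 h and 9 h means, these values describe the division only. The boundary between the groups is a matter of the limits. Just inside was TRIRE2_66210, with -0.593 at 6 h and -0.598 at 9 h, and just outside were TRIRE2_73783, with -0.605 at 6 h, and TRIRE2_22821, with -0.601 at 9 h. On the side of the fall, TRIRE2_28199 was just outside at -0.997. Excursions at 1 time were not limited to dips at 3 h. With the same limits 75 features, or 0.822%, were high at 3 h alone, 67 were low at 6 h alone and 49 at 9 h alone.

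**Figure D4:**
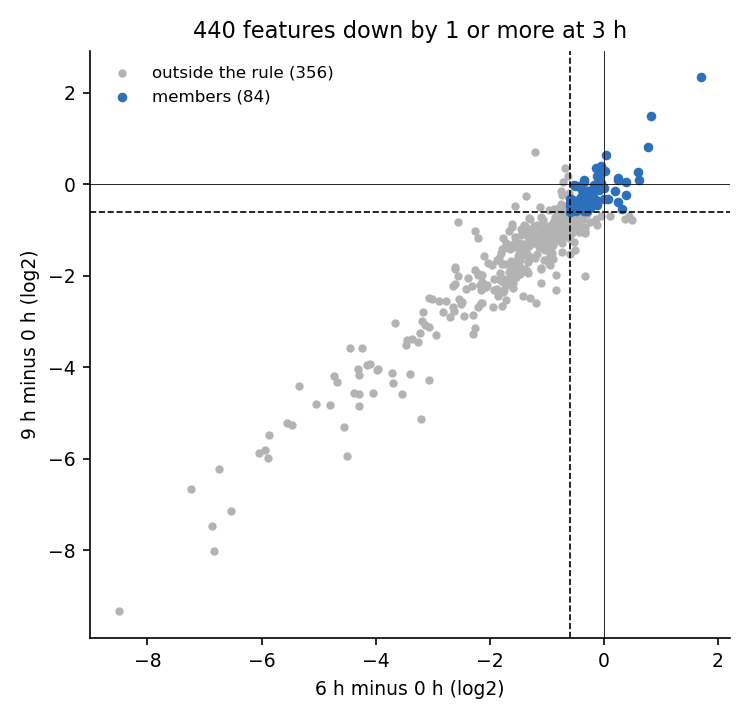
Log2 difference from 0 h at 9 h (vertical) against that at 6 h (horizontal) for the 440 features lower by 1 log2 unit or more at 3 h. Blue points are the 84 genes of the set and grey points the 356 outside it, and dashed lines mark the limit of -0.6. The points form 1 continuous cloud that the limits cut.

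The replicas of these genes were farther apart at 3 h than at the other times. The median SD of the 84 genes was 0.103, 0.186, 0.0982 and 0.0803 at 0, 3, 6 and 9 h, where that of all features was 0.0981, 0.0992, 0.0898 and 0.0821. For the 356 other features low at 3 h it was 0.133 at 3 h. The SD at 3 h was the largest of the 4 in 45 of the 84 genes, or 53.6%, where it was so in 29.7% of all features. This held at each level of signal. In the lowest quartile of mean level the 18 genes of the set had a median SD of 0.42 at 3 h, against 0.185 over the quartile, and in the quartiles above it 0.205 against 0.101, 0.189 against 0.0806 and 0.102 against 0.0767. An SD above 0.4 at 3 h was found in 13 of the 84 genes, or 15.5%, where 6.5% of all features had one. Among the 356 other features low at 3 h the share was 11.5%. The largest SD, 1.21, was that of TRIRE2_41425, the 1 gene of the set whose 3 h difference did not pass the adjusted p. Since the rule chose the genes by that difference, the passing of the others is no support for the set. The part of the spread between replicas in the choice of the genes was not tested.

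**Figure D5:**
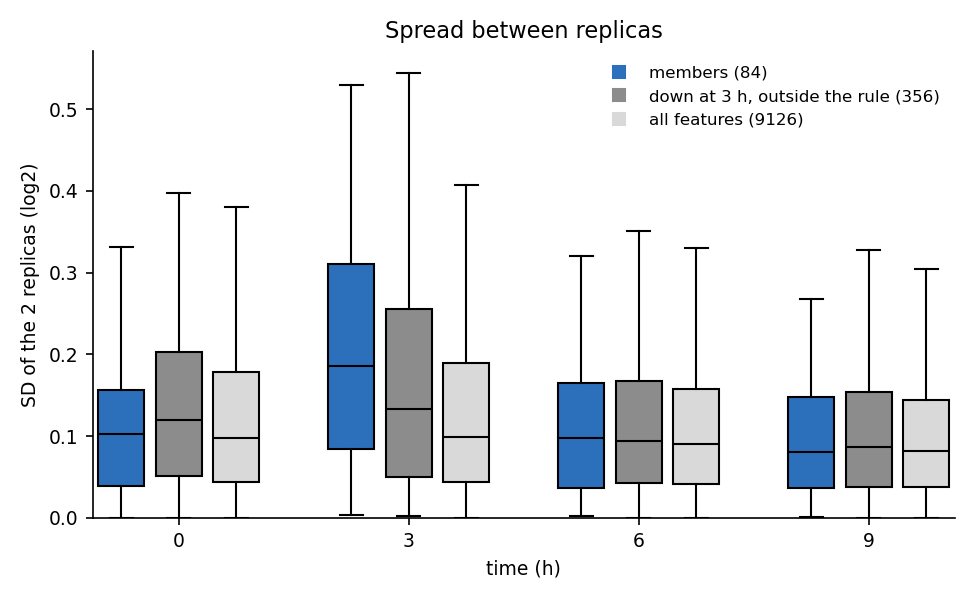
SD of the 2 replicas on the log2 scale at each time for the 84 genes (blue), the 356 other features lower by 1 log2 unit or more at 3 h (dark grey) and all 9126 features (light grey). Boxes span the quartiles with the median as a line, whiskers reach 1.5 times the box or the last value within it, and points beyond are not drawn. The blue box is raised at 3 h alone.

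For 83 of the 84 genes both 3 h replicas lay below all replicas of the other times, where this held for 12.4% of all features, and the exception was TRIRE2_39753. In 47 genes even the higher 3 h replica was lower than the 0 h mean by 1 log2 unit or more, and in 37 it was not. The rule held for every choice of 1 replica per time in 26 genes, among them rpl15 and the 4 deepest. A p-value over the 4 times under 0.05 was given to 70 of the 84 genes in the authors' deposited table, where 39% of all features had one. Both the order of the replicas and this p-value rest on the means that the rule used. Their shares in the set are therefore a description only and lend it no support. Of the 14 with a p-value of 0.05 or more in the authors' deposited table, 8 had an SD above 0.4 at 3 h and 1 was rpl30. In 3 genes the 3 h level was at or below the same level of 5.53, so the size of their dip is not exact.

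In the order of the gene table, which falls into 62 runs of rising start position, no gene of the set was next to another. Within 2 genes there was 1 pair, TRIRE2_77288 and TRIRE2_77291, which flank TRIRE2_106657. Levels of TRIRE2_77288 were 9.08 ± 0.24, 7.44 ± 0.42, 8.97 ± 0.057 and 9.02 ± 0.17, and those of TRIRE2_77291 were 10.47 ± 0.066, 9.22 ± 0.16, 10.07 ± 0.097 and 10.21 ± 0.037. The gene between them had no dip, with 11.04 ± 0.15 at 0 h and 11.10 ± 0.0096 at 3 h. The genes of the set had a median length of 1189 bases, against 1503 over all features and 1028 for the 42 ribosomal protein genes.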

How the data were processed

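The authors deposited log2 expression values made with RMA, per the submitters' processing notes, and per the file headers 1 table gives for 9126 features a mean log2 value and an SD at each of 4 times and 1 p-value. RMA gives all arrays 1 distribution, so a change in total RNA cannot be seen. Its version and the genome build are not given in the sources used here. A one-way analysis of variance for 2 replicas with Benjamini-Hochberg adjustment matched the authors' p-value within 1% for 9015 features (98.78%), so the SD was taken as that of 2 replicas, and the 2 replica values follow from it. The log2 means of the series value table, also deposited, were identical. Because the table held means, limma 3.58.1 in R 4.3.3 was run on means, SDs and 2 replicas (4 residual degrees of freedom per feature, prior 3.82), with all times in 1 fit and Benjamini-Hochberg adjustment over all features. Calls needed an adjusted p under 0.05 and at least 2-fold. The fit was tested on simulated data with the same spread at all times of a feature. Of 100 features changed by 1 log2 unit between 9 h and 6 h, 85 passed the adjusted p and 50 passed both limits. Of 100 changed by 2 log2 units, 97 passed both. The wider spread of the set at 3 h was not simulated.

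The 84 genes, the gene lists and the tests were chosen with earlier results of these data known. All features are in the tests, with no filter on low values. Named are the members with a symbol, except 1 that is not reported here by itself, the 4 with the largest fall, the 4 with the highest 0 h level and the 4 with the highest 9 h level relative to 0 h among those without one, and those nearest the thresholds. Symbols are those of RefSeq's table for T. reesei QM6a v2.0, which lists 9094 of the identifiers, 235 with a symbol. A planned search of promoters for motifs was not run, because no sequences were used here. Values of single arrays were not given, and the replica values used here were derived from the mean and SD of each time. The small number of arrays limits precision, and p-values cover only the spread of 2 replicas.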

Additional observations from a re-analysis of the deposited data

Results flagged for a closer look

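In 4 of the named genes both replicas lay below both 0 h replicas at 3 h and above both at 9 h. The log2 difference from 0 h at 9 h was 2.34 for TRIRE2_82105, 1.5 for TRIRE2_68574, 0.816 for TRIRE2_64906 and 0.648 for TRIRE2_54242, after differences at 3 h of -1.19, -1.63, -1.195 and -1.06. The difference between the times was not tested, since the rule chose these genes by the same means, and they were named for being the highest at 9 h.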

How the results depend on the processing

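The number of genes meeting the rule depended on its limits. It was 84 as given, 82 after quantile normalization (72 of them in the original set) and 72 with median centring (69 in it). A fall of 0.8 gave 182 genes and a fall of 1.5 gave 12. A recovery limit of -0.3 gave 29, and 1 of -1, chosen after seeing the data, gave 180. Requiring the rule for every choice of 1 replica per time gave 26. Without features of low mean level (under 9.63) there were 66, and without an SD above 0.4 at 3 h, also chosen after seeing the data, 71. Of ribosomal protein genes, 6 as given, there were 5 after quantile normalization, 3 with median centring, 14 at a fall of 0.8, 0 at a recovery limit of -0.3, 10 at -1 and 1 for every choice of replicas. Between 9 h and 6 h, 0 genes of the set were called as given, with median centring, a trended prior, 6 h and 9 h alone, or without low features. Quantile normalization gave 1, TRIRE2_3043 at -1.003 (limma adjusted p = 0.0221), 1.5-fold gave 3 and adjusted p alone 6. Over all features the count was 176 as given, 678 at 1.5-fold, 73 without low features and 1214 by adjusted p alone, added after seeing the data, and 167 to 221 otherwise. The 3 h difference of the 19 named genes moved by at most 0.033 with median centring and 0.16 with quantile normalization. Genes with a neighbour in the set numbered 0, or 2 within 2 genes. No paired analysis was possible because the table gives no replica numbers. Leaving out each array in turn was not run, because the mean and SD give a lower and a higher value per gene but not which array each came from. For the same reason quantile normalization was done on columns to which the 2 values of each gene and time were assigned at random. These columns are not arrays, and the results after quantile normalization rest on that random draw.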
